A study of Mus musculus with 2 samples.

Results

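The 10 immediate early genes followed here in single bone marrow cells of mice were the transcription factor genes Fos, Fosb, Jun, Junb, Jund, Egr1 and Atf3, together with Ier2, Dusp1 and Zfp36. They were chosen by name as a list of 10 of the 27998 genes in the table, and all 10 were among the 12076 genes with at least 20 transcripts over the 2 libraries compared. The Car1gfp library was made from CD45+ Car1-GFP-expressing bone marrow cells of naive Car1-GFP reporter mice on the C57BL/6 background, and the Naivebm library from CD45+ CD3- Ly6G- bone marrow cells of naive C57BL/6 mice. Each was a pool of 3 mice and there was 1 library per group, so that mice, sorts and preparations cannot be told apart from the groups. Car1 encodes a carbonic anhydrase of red cell precursors, and the reporter marks cells in which that promoter drives GFP. The labels used here give no age.

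Immediate early genes are transcribed within minutes of a signal, from growth factor or cytokine to handling stress, without new protein synthesis. Kinases of the MAP kinase cascades phosphorylate factors such as SRF's partners and CREB that already sit at these genes. Fos and Jun family proteins pair to form AP-1, Egr1 is a zinc finger factor of the same early wave, and Dusp1 and Zfp36 act back on it, by dephosphorylating MAP kinases and by promoting decay of AU-rich mRNAs. The transcripts are short-lived, and in marrow suspensions they are also known to appear during tissue dissociation and sorting.

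Values are counts of unique molecular identifiers (UMIs), each standing for 1 captured transcript end, from the 10x Genomics 3-prime method. A level is given as CPM, the UMIs of a gene per 1000000 UMIs of a library or group of cells, and 3-prime counts carry no correction for gene length. The Car1gfp library held 2400 kept cells with 42795219 UMIs (median 15512.5 per cell) and the Naivebm library 6268 kept cells with 8303633 UMIs (median 1031). The Car1gfp cells were thus 15.05 times deeper, and where shares of cells were compared, cells were thinned at random to a common number of UMIs. Of the cell barcodes, 13 occurred among the kept cells of both libraries. Car1 transcripts stood at 594 CPM in the Car1gfp library, against 102 CPM in the Naivebm library. Ptprc, which encodes CD45, was 12.97 CPM in the Car1gfp library and 303 CPM in the Naivebm library, both gated as CD45+. Ly6g, whose product was gated out of the Naivebm cells, was 0.397 CPM in the Car1gfp library and 85.0 CPM in the Naivebm library, where 2093 of 6268 cells were named neutrophil-like by their transcripts. Cells of a library are not replicates, so no p-value is given. Intervals are 95% exact intervals, cover the error of counting alone and hold nothing of how mice or preparations differ.

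The stretches just upstream of the transcription starts were read first, since these genes are known as targets of CREB, SRF, AP-1 and EGR factors. RefSeq promoter sequences of GRCm38.p6 were read for 8 of the 10 genes. Egr1 was left out of the search and Ier2 had no match, so that the counts below say nothing of these 2 genes. In the 250 bases before the start, the half-site of the cyclic AMP response element (CRE, bound by CREB and ATF factors), TGACG on either strand, was found in 5 of the 8 genes, Fos, Fosb, Junb, Atf3 and Dusp1. It was found in 17.8% of 32851 promoters of the same length. Fos and Dusp1 carried more than 1 copy. The stretches of the 4 AP-1 genes with the most UMIs outside Jund, and that of Dusp1, are shown because the values below turn on these genes. They lie at chr12:85473640-85473889 on the plus strand for Fos, chr7:19310052-19310295 on the minus strand for Fosb, chr4:95052223-95052472 on the minus strand for Jun, chr8:84978749-84978998 on the minus strand for Junb and chr17:26508520-26508722 on the minus strand for Dusp1. Each is written 5′ to 3′ on the strand of its gene, and for Fosb and Dusp1 the last 6 and 47 bases before the start, which an annotated transcript covers, were left off. Capitals mark the CRE half-site, the whole CRE and a variant AP-1 site.
Fos: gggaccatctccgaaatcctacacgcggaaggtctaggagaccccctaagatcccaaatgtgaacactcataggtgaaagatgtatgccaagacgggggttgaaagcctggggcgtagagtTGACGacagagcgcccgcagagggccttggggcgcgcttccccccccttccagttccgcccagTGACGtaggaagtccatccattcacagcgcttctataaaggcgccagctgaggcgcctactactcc
Fosb: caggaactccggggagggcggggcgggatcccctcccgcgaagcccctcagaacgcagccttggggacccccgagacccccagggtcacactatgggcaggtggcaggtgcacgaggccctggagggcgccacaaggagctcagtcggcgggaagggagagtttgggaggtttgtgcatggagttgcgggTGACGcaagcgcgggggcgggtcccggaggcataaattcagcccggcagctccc
Jun: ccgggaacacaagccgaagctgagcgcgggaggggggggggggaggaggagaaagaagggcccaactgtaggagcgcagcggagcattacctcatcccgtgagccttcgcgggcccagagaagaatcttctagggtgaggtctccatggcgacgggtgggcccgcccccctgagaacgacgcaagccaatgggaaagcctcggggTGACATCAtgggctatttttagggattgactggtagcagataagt
Junb: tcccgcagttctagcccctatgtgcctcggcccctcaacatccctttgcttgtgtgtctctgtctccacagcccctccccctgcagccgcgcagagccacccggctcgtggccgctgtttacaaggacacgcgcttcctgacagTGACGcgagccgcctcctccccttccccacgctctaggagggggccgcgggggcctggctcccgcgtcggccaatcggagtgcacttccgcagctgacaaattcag
Dusp1: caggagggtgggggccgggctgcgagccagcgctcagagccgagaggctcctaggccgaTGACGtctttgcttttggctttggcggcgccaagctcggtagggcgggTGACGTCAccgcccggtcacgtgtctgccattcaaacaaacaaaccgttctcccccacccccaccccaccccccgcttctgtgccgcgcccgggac

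Fos held its half-sites at 129 to 125 and 66 to 62 bases before the start, and a TATA box (TATAAA, read on the gene's strand) at 33 to 28 bases. Those letters were found in 7.59% of promoters. Fosb held its half-site at 60 to 56 bases and Junb at 106 to 102 bases before the start. That of Atf3 lay at 7 to 3 bases before the start, within bases that an annotated transcript covers. Dusp1 was the gene with the whole element, TGACGTCA, at 143 to 136 bases before the start, where it overlaps the half-sites counted on both strands, and a further half-site at 191 to 187 bases. The whole element was found in 1.55% of promoters. Jun had neither the element nor its half-site. Its stretch holds TGACATCA at 45 to 38 bases before the start, a variant of the AP-1 site that was added to the search after the sequences were seen, and 2.93% of promoters hold it on either strand. The usual AP-1 site, TGANTCA on either strand, was found in 0 of the 8 genes and in 6.75% of promoters. The SRF site known as the CArG box was found in Zfp36 alone of the 8, at 58 to 49 bases, against 1.47% of promoters on either strand. The EGR site GCGNGGGCG was found in Fosb and Zfp36, against 4.70% of promoters on either strand. The Zfp36 stretch, chr7:28379229-28379478, lies inside the gene as annotated here (28376784 to 28380253, minus strand). Its CArG box and EGR site are thus upstream of the RefSeq start but not of the annotated gene. For Jund none of these motifs was found before the RefSeq start, which lies upstream of the start in the gene annotation used here. A match is a description of letters and is not a bound site.

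The first comparison asked how the immediate early genes of the Car1-GFP gate stood against the broader marrow gate. Jun, Egr1, Fosb, Dusp1 and Fos stood 2-fold or more above Naivebm in the Car1gfp library, Zfp36 and Atf3 stood 2-fold or more below it, and Junb, Jund and Ier2 lay within 2-fold. Summed, the 10 genes held 17054 UMIs or 398.5 CPM (392.5 to 404.5) in the Car1gfp library and 1567 UMIs or 188.7 CPM (179.5 to 198.3) in the Naivebm library. The log2 ratio was 1.08 (1.004 to 1.15), or 2.11-fold. The 5 of 10 genes that were at least 2-fold higher stood against 22.2% of all measured genes, and the 2 of 10 that were lower against 32.7%. The median log2 ratio of the 10 was 0.85, and that of all measured genes was -0.23. Another scaling of the libraries (TMM) adds 0.39 to each log2 ratio.

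**Figure D1:**
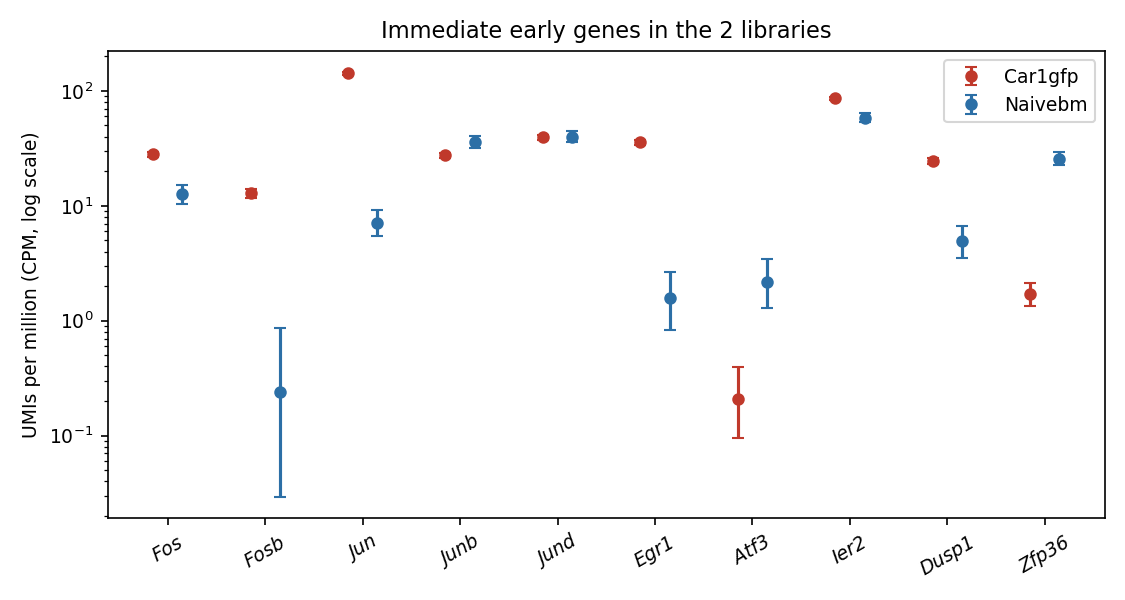
Level of each immediate early gene (CPM, log axis) in the Car1gfp library and in the Naivebm library, 1 library each, with 95% exact Poisson intervals of the counts. Jun, Egr1 and Fosb stand far above in the Car1gfp library and Zfp36 far below, while Jund lies at 39.5 CPM in the Car1gfp library and 40.0 CPM in the Naivebm library.

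Jun (ENSMUSG00000052684, mm10 chromosome 4, 95049034 to 95052222, minus strand), the AP-1 subunit for which the complex is named, was the leading gene of the Car1gfp library, with 142 CPM against 7.11 CPM in the Naivebm library. The log2 ratio was 4.32 (3.95 to 4.72), or 20.02-fold. At least 1 Jun UMI was found in 81.6% of Car1gfp cells and 0.877% of Naivebm cells as sequenced. After thinning to 1000 UMIs, Jun was found in 18% (16.5 to 19.6) of 2400 Car1gfp cells and in 0.581% (0.350 to 0.906) of 3271 Naivebm cells, the other Naivebm cells being shallower than that. No cell type known to lack these genes was available as a guide to free RNA in droplets. Junb (ENSMUSG00000052837, chromosome 8, 84974484 to 84978718, minus strand), a subunit that often opposes Jun, was 27.4 CPM in the Car1gfp library and 35.9 CPM in the Naivebm library. Its log2 ratio of -0.39 (-0.57 to -0.20) became -0.00 with TMM scaling, so that no direction is given for it. Jund (ENSMUSG00000071076, chromosome 8, 70698949 to 70700616, plus strand), the most constantly expressed of the Jun genes, had a log2 ratio of -0.02 (-0.19 to 0.16), and 0.37 with TMM. The Jun genes therefore differed among themselves: Jun alone lay outside 2-fold.

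Fos (ENSMUSG00000021250, chromosome 12, 85473890 to 85477273, plus strand), the partner of Jun in AP-1, was 28.0 CPM in the Car1gfp library and 12.6 CPM in the Naivebm library, a log2 ratio of 1.15 (0.86 to 1.45). Fosb (ENSMUSG00000003545, chromosome 7, 19302696 to 19310051, minus strand), its close relative, was 12.8 CPM in the Car1gfp library, from 549 UMIs, and 0.241 CPM in the Naivebm library, from 2 UMIs. The log2 ratio of Fosb was 5.74 with a wide interval of 3.88 to 8.78. Atf3 (ENSMUSG00000026628, chromosome 1, 191170296 to 191218039, minus strand), a CRE-binding stress factor, was scarce in both libraries, with 9 UMIs in the Car1gfp library and 18 in the Naivebm library. That was 0.210 CPM against 2.17 CPM, a log2 ratio of -3.37 (-4.70 to -2.14). Among cells with at least 1000 UMIs the ratio of Atf3 was -2.25.

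Egr1 (ENSMUSG00000038418, chromosome 18, 34859823 to 34864984, plus strand), the zinc finger factor, was 35.7 CPM in the Car1gfp library, from 1529 UMIs, and 1.57 CPM in the Naivebm library, from 13 UMIs. Its log2 ratio was 4.51 (3.73 to 5.42), and after thinning to 1000 UMIs it was found in 6.54% of Car1gfp cells and 0.245% of Naivebm cells. Ier2 (ENSMUSG00000053560, chromosome 8, 84661331 to 84662852, minus strand), an early nuclear protein, was 86.2 CPM in the Car1gfp library and 58.4 CPM in the Naivebm library, a log2 ratio of 0.56 (0.42 to 0.70). Jun and Ier2 made up 57.3% of the summed UMIs in the Car1gfp library, and Ier2 and Jund 52.1% in the Naivebm library. Egr1 was the fourth most abundant of the 10 in the Car1gfp library and the ninth in the Naivebm library.

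The 2 feedback genes went opposite ways. Dusp1 (ENSMUSG00000024190, chromosome 17, 26505590 to 26562128, minus strand), the MAP kinase phosphatase, was 24.7 CPM in the Car1gfp library and 4.94 CPM in the Naivebm library, a log2 ratio of 2.32 (1.87 to 2.81). Zfp36 (ENSMUSG00000044786, chromosome 7, 28376784 to 28380253, minus strand), the decay factor tristetraprolin, was 1.71 CPM in the Car1gfp library, from 73 UMIs, and 25.8 CPM in the Naivebm library, from 214 UMIs. Its log2 ratio was -3.92 (-4.32 to -3.53), or 15.1-fold lower. After thinning to 1000 UMIs, Dusp1 was found in 3.42% of Car1gfp cells and 0.550% of Naivebm cells, and Zfp36 in 0.167% of Car1gfp cells and 1.96% of Naivebm cells. As sequenced, Zfp36 was found in 2.79% of Car1gfp cells and 3.35% of Naivebm cells, at their unequal depths. In a cluster of 11 Car1gfp cells rich in S100a8, a neutrophil transcript, Zfp36 stood at 37.4 CPM, from 6 of its UMIs.

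The make-up of the libraries differed with these levels. The 10 neutrophil markers summed to 174 CPM in the Car1gfp library and 144284 CPM in the Naivebm library, and the 9 monocyte markers to 17.97 CPM and 3511 CPM, with no marker of either list at 0. All 19 of these markers were at least 2-fold lower in the Car1gfp library. The 10 erythroid progenitor markers summed to 2361 CPM in the Car1gfp library and 359 CPM in the Naivebm library, and 9 of the 10 were at least 2-fold higher in the Car1gfp library. The 10 late erythroid markers, globins among them, summed to 12618 CPM in the Car1gfp library and 2227 CPM in the Naivebm library, and all 10 were at least 2-fold higher in the Car1gfp library. The part of this difference in cell types in the ratios above was not tested by a fit, but 2 Naivebm classes nearer to the Car1gfp gate were set against it.

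Against the 273 Naivebm cells of the late erythroid class, the sum stood further above than against the whole library and Zfp36 less far below. The class mixes stages: at a finer clustering 194 of its cells were named erythroid progenitor-like, at 105 CPM (82.4 to 132) of the 10 genes, and 79 late erythroid-like, at 123 CPM (70.5 to 200.3). The 10 genes held 398.5 CPM in the Car1gfp library and 107.8 CPM (86.7 to 132.5), from 90 UMIs, in that class, a log2 ratio of 1.89 (1.59 to 2.20) or 3.70-fold. Of 9 measured genes 7 were at least 2-fold higher, against 12.5% of measured genes, and 1 lower, against 27.3%. Jun had a log2 ratio of 4.09 (3.04 to 5.40) and Ier2 of 1.999 (1.34 to 2.75). Fos, Egr1 and Dusp1 rested on 2, 3 and 3 UMIs in the class, with log2 ratios of 3.55 (1.69 to 6.59), 3.31 (1.76 to 5.59) and 2.78 (1.23 to 5.06). Fosb had 0 UMIs there and was at least 3.57-fold higher in the Car1gfp library, against a floor of 3 UMIs summed over the class. Junb, which lay near the Naivebm level as a whole, had a log2 ratio of 1.35 (0.42 to 2.48) against this class. Jund was -0.38 (-0.82 to 0.09), and Zfp36, from 5 UMIs in the class, was -1.81 (-3.10 to -0.15).

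Against the 440 cells of the stem and multipotent progenitor class the log2 ratio of the sum was 1.11 (0.84 to 1.39). Of 9 measured genes 5 were at least 2-fold higher, against 14.5% of measured genes, and 1 was lower, against 36.6%. Jun was again highest, at 4.44 (3.09 to 6.32), from 4 UMIs in the class, and Zfp36 lowest, at -3.64 (-4.50 to -2.66), from 13 UMIs. Neither class was matched to the Car1gfp cells in stage or depth. The late erythroid cluster also held Car1 and Car2 among its leading genes, and the stem and multipotent progenitor cluster held Pf4 and Dntt.

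Within the Car1gfp library the immediate early genes were spread unevenly over cells. Each of the 2400 cells was thinned to 4000 UMIs for this. Jun was then found in 45.5% (43.5 to 47.6) of cells, Ier2 in 33.2%, Egr1 in 17.9%, Jund in 17.1%, Fos in 13.5%, Junb in 12.8%, Dusp1 in 12.1% and Fosb in 6.29%. Zfp36 was found in 1.17% and Atf3 in 0.0417%, which is 1 cell. The variance of the UMIs over their mean, which is near 1 for counting noise alone, was 2.17 for Jun, 1.66 for Fos, 1.43 for Egr1, 1.36 for Ier2, 1.33 for Dusp1, 1.28 for Fosb, 1.26 for Jund and 1.16 for Junb. Over the 5758 genes found in at least 5% of cells the median was 1.02, the 90th percentile 1.11 and the 99th 1.79. All 8 immediate early genes found in that share of cells were thus above the 90th percentile, and Jun was above the 99th.

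The number of these genes seen together in a cell was small at this depth. None was seen in 573 cells (23.9%), 1 in 774, 2 in 517, 3 in 277 and 4 in 154 cells. At least 5 were seen in 105 cells (4.38%), and 7, the most, in 11 cells. The summed UMIs had a median of 1, a 90th percentile of 6 and a maximum of 23 of the 4000. The highest decile of cells, 240 in number, held 37.8% of all summed UMIs. As sequenced, the highest decile of cells held 70.7% of Fosb UMIs and 55.9% of Fos UMIs, but 30.7% of Jun UMIs. The most UMIs in 1 cell were 19 for Jun, 16 for Fos and 10 for Ier2.

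The next question was whether the genes occurred in the same cells. For a pair, the share of thinned cells with both was divided by the product of the 2 single shares, which gives 1 where they fall independently. For the 28 pairs of the 8 genes found in at least 5% of cells, the median ratio was 1.498 and the range 1.16 to 2.56. At least 1.25 was reached by 23 of 28 pairs, against 4.81% of all pairs of genes, whose median was 1.0 and 99th percentile 1.46. Fos and Fosb were the highest pair, found together in 52 cells, at 2.56 times the product. Pairs among Fos, Fosb, Egr1 and Dusp1 made up the top of the order, with Fos and Dusp1 at 1.999, Fos and Egr1 at 1.99, Fosb and Egr1 at 1.96, Fosb and Dusp1 at 1.92 and Egr1 and Dusp1 at 1.91. Jun and Egr1 were found together in 296 cells, 12.3% against a product of 8.14%, and had the highest Spearman rho of the pairs, 0.27 over 2400 cells. Junb and Ier2 were the lowest pair, at 1.16. With Zfp36 and Atf3 included, the median over 45 pairs was 1.44, and 32 pairs reached 1.25.

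**Figure D2:**
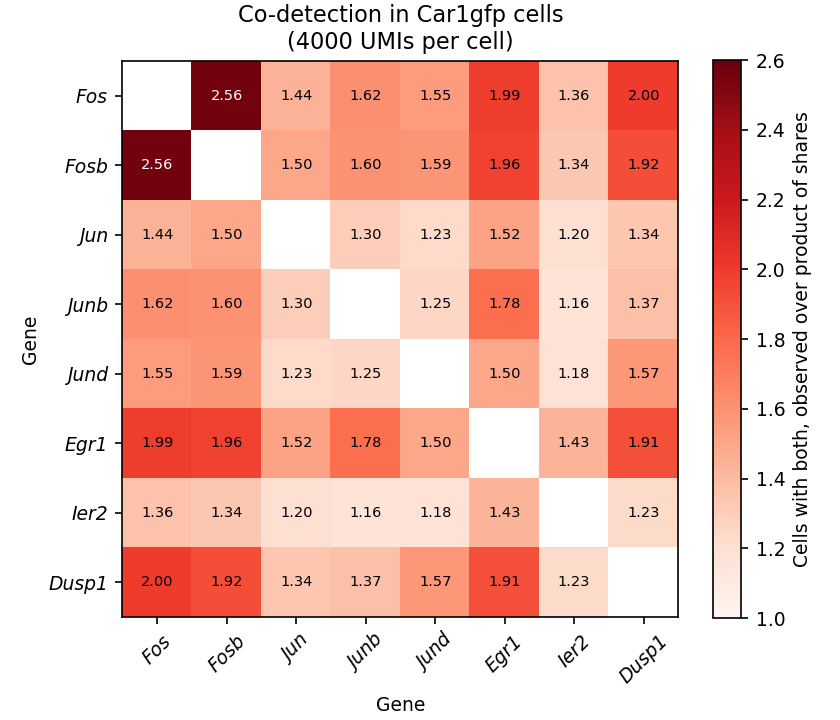
Co-detection of 8 immediate early genes in 2400 Car1gfp cells thinned to 4000 UMIs. Each square gives the share of cells with both genes over the product of their shares, from 1.16 for Junb with Ier2 to 2.56 for Fos with Fosb, and a value of 1 would mean independent detection.

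Co-detection was smaller among cells of like depth. Cells were cut into terciles (3 equal groups) by their UMIs before thinning, and the median over the 28 pairs was 1.245 in the shallowest tercile, 1.30 in the middle tercile and 1.06 in the deepest tercile. The pairs at 1.25 or above numbered 14, 15 and 5 in those terciles, against 11.2%, 11% and 10.6% of all pairs of genes. Of the 28 pairs, 0 were below 1 in the shallowest, 5 in the middle and 13 in the deepest tercile. Of all pairs of genes, 46.8%, 48.5% and 48.6% were below 1 in the same order. Fos and Fosb kept a ratio of 2.07 in the shallowest, 1.54 in the middle and 1.63 in the deepest tercile. Jun and Egr1 were at 1.19, 1.37 and 1.30 in the same order, and Fos and Junb at 1.36, 1.60 and 0.447. These terciles hold few cells with both genes of a scarce pair, and their ratios carry that counting error.

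Of the 3 cell measures examined, depth had the largest rank correlation with the summed immediate early genes. In quintiles (5 equal groups of 480) of Car1gfp cells, from shallowest to deepest, median UMIs per cell were 5757, 9306, 15513, 22943 and 33611, and the 10 genes summed to 1205, 755.8, 402.9, 278.1 and 246.3 CPM. The log2 ratio of the deepest over the shallowest quintile was -2.29 (-2.36 to -2.22). At the same time the summed UMIs per cell were 7.002, 7.14, 6.30, 6.43 and 8.65 in the same order. Total UMIs were 6.05 times higher in the deepest quintile than in the shallowest, and immediate early UMIs 1.24 times higher. The lower CPM of deep cells thus came with between 6.30 and 8.65 of these transcripts per cell in each quintile beside a larger total.

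**Figure D3:**
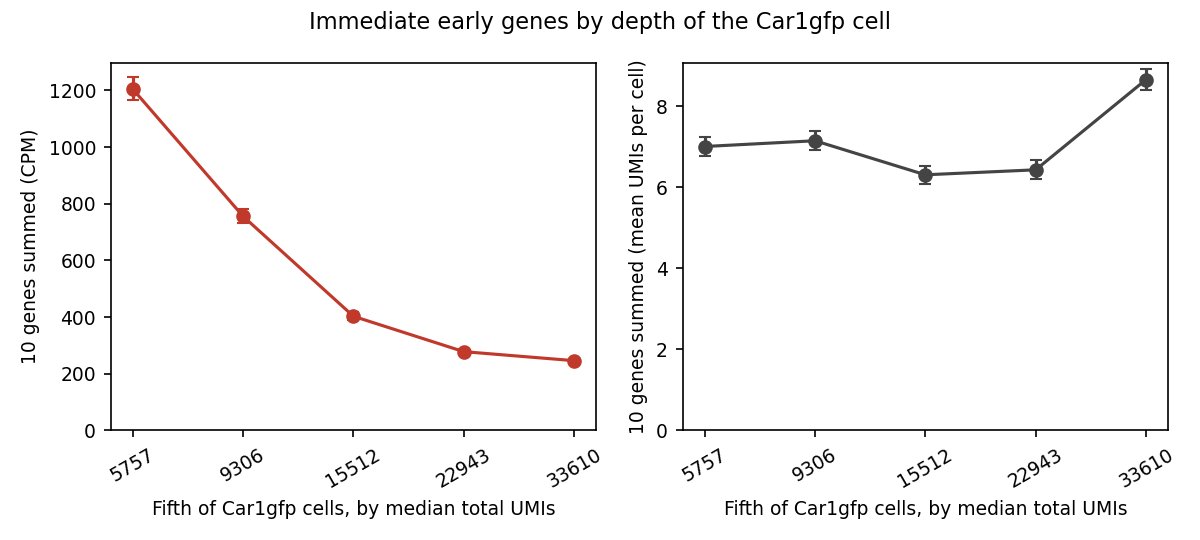
Sum of the 10 immediate early genes in quintiles of Car1gfp cells (480 each) ordered by total UMIs, as CPM (left) and as mean UMIs per cell (right), with 95% exact Poisson intervals. The CPM falls to 246.3 in the deepest quintile, against 1205 in the shallowest, while the UMIs per cell stay between 6.30 and 8.65.

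Of the 9 measured genes, 9 were at least 2-fold lower in CPM in the deepest than in the shallowest quintile, against 12.1% of measured genes, and 0 were higher, against 4.10%. At least 4-fold lower were 6 of 9, against 3.59%. Egr1 showed the widest gap, with 16.4 CPM in the deepest and 135 CPM in the shallowest quintile, a log2 ratio of -3.04 (-3.27 to -2.81). Dusp1 was at -2.77 (-3.04 to -2.49), Jun at -2.68 (-2.79 to -2.57), Zfp36 at -2.67 (-3.63 to -1.71), Fos at -2.64 (-2.89 to -2.38) and Fosb at -2.05 (-2.44 to -1.65). Ier2, Junb and Jund had the narrowest gaps, at -1.72, -1.58 and -1.42. In counts, Jun had 1305 UMIs in the deepest quintile and 1386 in the shallowest, and Egr1 277 and 376. Of the 9 genes 5 (Fos, Jun, Egr1, Dusp1 and Zfp36) had no more UMIs per cell in the deepest than in the shallowest quintile, which was true of 1.84% of measured genes. Atf3 had 5 UMIs in the deepest quintile and 0 in the shallowest.

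Some other transcripts moved along with depth and others did not. Gata2 was 208, 118, 54.7, 32.4 and 28.4 CPM from the shallowest to the deepest quintile. The 10 megakaryocyte markers summed to 308, 135, 96.8, 52.1 and 44.9 CPM, the 10 basophil markers, Gata2 among them, to 629, 356, 181, 96.5 and 89.8 CPM, and the 10 late erythroid markers to 28387, 14517, 17981, 12420 and 7241 CPM. The stem and multipotent progenitor markers were 89.1 CPM in the deepest and 246 CPM in the shallowest quintile, the mast cell markers 378 and 922 CPM, and the granulocyte-monocyte progenitor markers 772 and 1405 CPM. The NK and innate lymphoid markers were 33.4 CPM in the deepest and 276 CPM in the shallowest quintile. The neutrophil markers did not fall steadily, at 1025, 76.0, 288, 79.3 and 71.99 CPM from shallowest to deepest. Monocyte markers peaked at 66.8 CPM in the second quintile. Macrophage (42.7 to 50.3 CPM), conventional dendritic (33.0 to 30.4), plasma cell (30.1 to 27.8) and plasmacytoid dendritic markers (101 to 86.0) changed little. Eosinophil, B lineage, T, lymphoid-primed progenitor and stromal markers were lower in the deepest quintile. The 10 erythroid progenitor markers stayed between 2197 and 2455 CPM. Median mitochondrial shares lay between 3.19% and 3.45%, and the 11 heat shock and dissociation genes summed to 4589, 4721, 4824, 5317 and 6102 CPM, in the opposite order to the immediate early genes. Their part in the result was not tested.

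The highest levels in CPM lay in a cluster of shallow cells. Cells were clustered without the immediate early genes, and 569 Car1gfp cells with a median of 6493 UMIs formed a cluster that no marker list named. The mast cell list matched it best, with 3 of 10 markers at 2-fold. Another list had more markers among the cluster's 10 leading genes, 2 against 1, so the name was not given. Those leading genes were Vim, Plac8, Sox4, Ifitm1, Egr1, Gzmb, Nkg7, Gmfg, Gata2 and Jun. In this cluster the 10 immediate early genes summed to 1210 CPM (1176 to 1244), and in the other clusters of at least 50 cells to between 204 and 655 CPM. Jun was 482 CPM and Egr1 149 CPM in that cluster. The next highest cluster of that size, 158 cells rich in Pf4, a platelet chemokine, was at 655 CPM (622 to 689), with Jun at 268 CPM. The 206 cells of the larger late erythroid-like cluster were at 228 CPM (213 to 245). Without the 569 cells, the log2 ratio of Car1gfp over Naivebm for the sum was 0.73, against 1.08 with them, Fos was at 0.74 and no longer 2-fold higher, and Jun and Egr1 were at 3.90 and 3.92. Without them the deepest over the shallowest quintile of cells was -1.29 for the sum, against -2.29, and the median co-detection ratio over the 28 pairs 1.29, against 1.498.

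Gata2, a transcription factor of stem, mast cell and megakaryocyte precursors, was then set against the 10 genes cell by cell. After thinning to 4000 UMIs, the sum stood at 949.4 CPM (911 to 989) in the 618 Car1gfp cells with a Gata2 UMI and at 465.6 CPM (450 to 482) in the 1782 cells without one. The log2 ratio was 1.03 (0.95 to 1.10). Of 9 measured genes 5 stood at least 2-fold above in cells with Gata2, against 3.92% of measured genes, and 0 were lower, against 2.16%. Fos had the highest ratio, 1.26 (0.98 to 1.54), followed by Jun at 1.14 (1.02 to 1.27), Egr1 at 1.13 (0.89 to 1.38), Dusp1 at 1.09 (0.78 to 1.40) and Fosb at 1.06 (0.61 to 1.498). Zfp36 (0.90), Junb (0.86), Jund (0.85) and Ier2 (0.76) lay within 2-fold. With 0, 1 and 2 or more Gata2 UMIs the sum was 465.6, 828.6 and 1239 CPM, and Jun 170, 315 and 519 CPM.

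The cells with Gata2 were shallower as sequenced, with a median of 8640 UMIs against 18549 in those without. Within quintiles of depth, from shallowest to deepest, the sum was 1428 CPM with Gata2 against 994 without, 884 against 739, 533 against 370, 296 against 283, and 347 against 249 CPM. The intervals of the 2 groups did not meet in the first 3 quintiles, but they met in the fourth and, narrowly, in the deepest, where they were 273 to 435 CPM with Gata2 and 226 to 274 CPM without. Cells with Gata2 were higher in each quintile, but within the middle tercile of depth the log2 ratio was 0.46 (0.29 to 0.64), against 1.03 in all cells. Without the 569-cell cluster it was 0.60 (0.47 to 0.73).

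**Figure D4:**
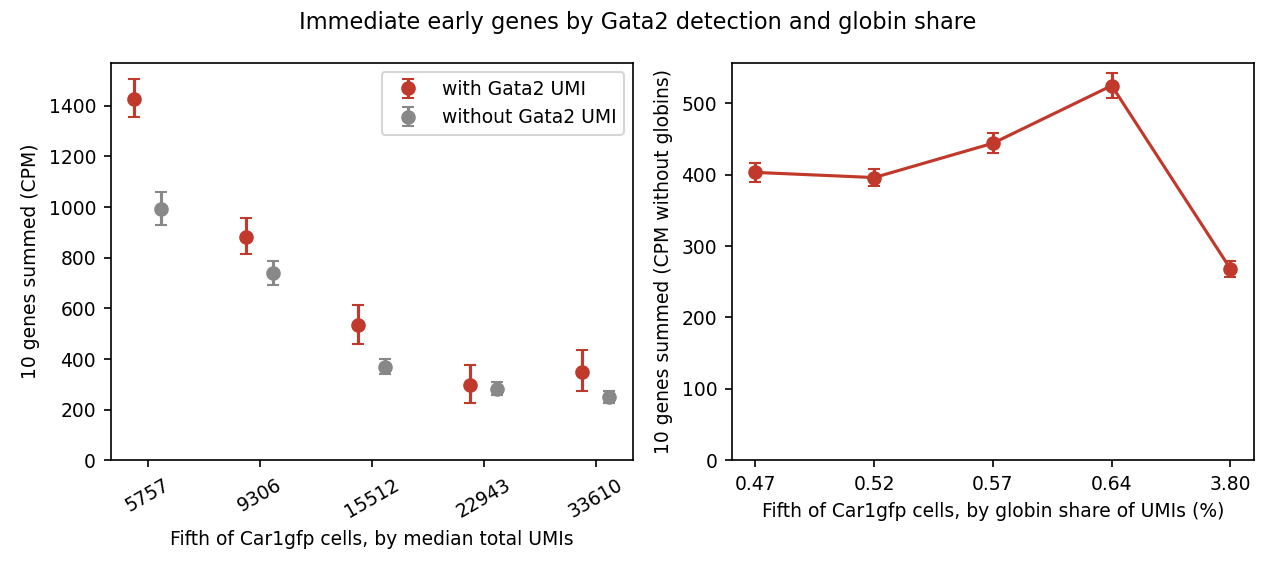
Sum of the 10 immediate early genes in Car1gfp cells with 95% exact Poisson intervals. Left, cells with and without a Gata2 UMI within quintiles of depth (cells thinned to 4000 UMIs), from 1428 CPM with Gata2 against 994 without in the shallowest quintile to 347 against 249 in the deepest. Right, quintiles of cells by the globin share of their UMIs, with 268.1 CPM in the highest quintile and between 395.8 and 524.4 CPM in the others.

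The globin share of a cell, a gauge of how far its hemoglobin program has gone, gave a smaller and uneven relation. Quintiles of cells held globin shares of 0.466%, 0.520%, 0.566%, 0.642% and 3.804% of UMIs, and the 10 genes, with globin UMIs left out of the total, summed to 403.0, 395.8, 443.8, 524.4 and 268.1 CPM. The quintile with the most globin was thus the lowest, and the one just under it the highest. Cells of the highest quintile held globin shares from 0.750% to 54.0%, and all other cells only from 0.211% to 0.748%. Differences among the lower quintiles are therefore not read as stages of the hemoglobin program. The log2 ratio of the highest over the lowest globin quintile was -0.59 (-0.66 to -0.51). None of the 9 measured genes was 2-fold higher, against 5.02% of measured genes, and none was 2-fold lower, against 8.79%. Egr1 was at -0.93 (-1.22 to -0.64), Jund at -0.85, Fosb at -0.83, Fos at -0.73 and Jun at -0.70 (-0.83 to -0.57). Dusp1 differed from these in sign, with 28.7 CPM in the highest and 24.0 CPM in the lowest globin quintile, and its interval of -0.01 to 0.53 around 0.26 included 0. Zfp36 was at 0.16 (-1.12 to 1.45) from 12 UMIs on each side.

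The quintile with the second highest globin share also had the lowest median depth, 10189 UMIs against 14958 to 18733 in the others. With the shallowest tercile of cells left out, the 5 globin groups were at 314.0, 336.8, 316.0, 343.4 and 232.7 CPM, so that the highest globin group was again the lowest and the others lay within 314.0 to 343.4. In rank terms over 2400 thinned cells, the summed genes had a Spearman rho of -0.48 with depth, 0.31 with Gata2 and -0.12 with globin share. The medians over 5758 genes were 0.01, -0.00 and -0.01 for the same 3 measures. Jun had the strongest of these among the 10, at -0.42, 0.27 and -0.09. These correlations are descriptions, since the cells share a library and a cell's depth enters each measure. Their sizes do not rank the 3 measures, which differ in counting noise. Depth is a cell's full total, while a Gata2 UMI was found in 618 of the 2400 thinned cells.

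Genes most alike the summed immediate early UMIs over the thinned Car1gfp cells, among 2247 genes found in at least 20% of them, were Malat1 (rho 0.53), a nuclear non-coding RNA, Plac8 (0.53), a gene of myeloid and multipotent progenitors, Apoe (0.42), Gmfg (0.41), S100a10 (0.40), Rps19 (0.36), Srgn (0.36) and Tmsb4x (0.35). Each of these 8 was itself negatively related to depth, with rho from -0.62 for Malat1 to -0.35 for Srgn.

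In the Naivebm library the genes were compared over 10 marker-defined classes of at least 50 cells. NK and innate lymphoid, conventional dendritic, B lineage and monocyte classes stood high, and granulocyte-monocyte progenitors and late erythroid cells low. The sum was 478 CPM (380 to 594) in the 169 NK and innate lymphoid-like cells, 385 CPM (280 to 517) in 117 conventional dendritic-like cells, 335 CPM (242 to 451) in 97 B lineage-like cells and 265 CPM (242 to 290) in 1676 monocyte-like cells. It was 214 CPM (175 to 260) in 542 plasmacytoid dendritic-like cells, 185 CPM (152 to 222) in 440 stem and multipotent progenitor-like cells and 164 CPM (103 to 249) in 111 basophil-like cells. The lowest were 2093 neutrophil-like cells at 153 CPM (138 to 169), 689 granulocyte-monocyte progenitor-like cells at 124 CPM (106 to 143) and the 273 late erythroid-like cells of mixed stage at 108 CPM (86.7 to 132). The highest class was 4.44-fold above the lowest, a log2 ratio of 2.15 (1.70 to 2.598). For each of the 9 neighbouring pairs in this order the intervals overlapped. Overlap alone does not show that levels are alike. No ratio between neighbours is given here, so their order is not interpreted. Jund weighed unequally in these sums. It held 32 of the 82 UMIs in NK and innate lymphoid and 21 of 43 in B lineage cells. In plasmacytoid dendritic cells it held 46 of 103, in late erythroid cells 43 of 90 and in neutrophils 46 of 380. One unnamed cluster of 35 cells and 26 macrophage-like cells were kept out of the order.

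**Figure D5:**
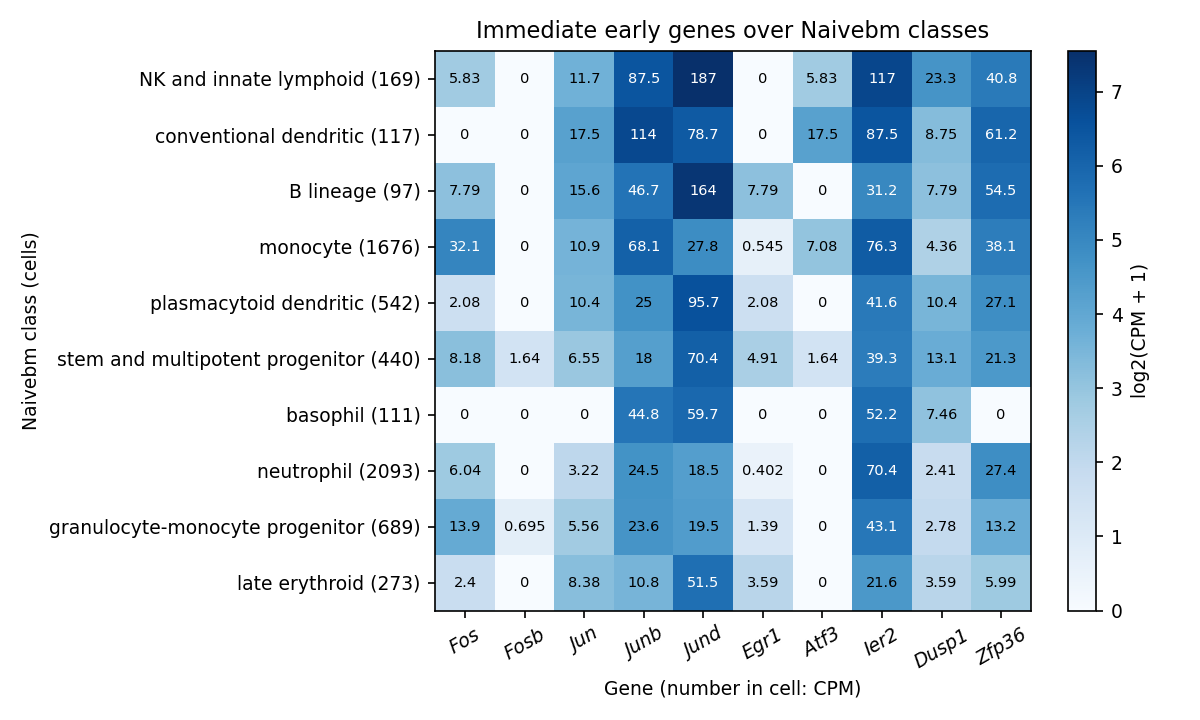
Level of each immediate early gene in 10 marker-defined classes of Naivebm cells, in order of their summed level. Numbers are CPM and colours log2(CPM + 1). Jund is highest in NK and innate lymphoid cells (187 CPM) and B lineage cells (164 CPM), Junb in conventional dendritic cells (114 CPM) and Fos in monocytes (32.1 CPM).

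The classes differed in which of the genes they held. Jund was 187 CPM (128 to 263) in NK and innate lymphoid cells, 164 CPM (101 to 250) in B lineage cells and 95.7 CPM (70.1 to 128) in plasmacytoid dendritic cells, and 18.5 CPM (13.6 to 24.7) in neutrophils, the lowest. After thinning to 500 UMIs, 12.4% of NK and innate lymphoid cells and 1.05% of neutrophils had a Jund UMI. Junb, by contrast, was 114 CPM (60.5 to 194) in conventional dendritic cells, 87.5 CPM in NK and innate lymphoid cells and 68.1 CPM (56.7 to 81.2) in monocytes, and 10.8 CPM (4.93 to 20.5) in late erythroid cells. The highest over the lowest class was 10.1-fold for Jund and 10.5-fold for Junb. Ier2, the one of the 10 genes with at least 50 CPM in the library, was 117 CPM (71.3 to 180) in NK and innate lymphoid cells, 76.3 CPM in monocytes, 70.4 CPM in neutrophils and 21.6 CPM (12.8 to 34.1) in late erythroid cells. With 10 CPM added to each level, Ier2 spread at least 4-fold over the classes, as did 39.4% of genes of at least 50 CPM, and so did the scarcer Fos, Junb, Jund and Zfp36.

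Fos was mostly a monocyte transcript in this library. Monocytes held 32.1 CPM, which was 59 of the 105 Fos UMIs (56.2%), granulocyte-monocyte progenitors 13.9 CPM, and conventional dendritic cells and basophils 0 UMIs. Atf3 had 13 of its 18 UMIs in monocytes. Zfp36 was 61.2 CPM (24.6 to 126) in conventional dendritic cells, 54.5 CPM in B lineage cells, 38.1 CPM (29.7 to 48.2) in monocytes and 27.4 CPM (21.3 to 34.7) in neutrophils. It was 5.99 CPM (1.94 to 14.0) in late erythroid cells and had 0 UMIs in basophils, where the interval reached 27.5 CPM. Monocytes held 70 and neutrophils 68 of the 214 Zfp36 UMIs. Of all 8303633 UMIs of the library, monocytes held 1835233 and neutrophils 2485267, so part of such counts goes with class size. Dusp1 was 23.3 CPM in NK and innate lymphoid cells, 13.1 CPM in stem and multipotent progenitor cells and 2.41 CPM in neutrophils, from 41 UMIs in the library. Jun lay between 0 UMIs in basophils and 17.5 CPM in conventional dendritic cells, and each class stayed far below the 142 CPM of the Car1gfp library. Egr1, with 13 UMIs, and Fosb, with 2, were too scarce to order the classes.

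Classes made of several clusters were not uniform. The monocyte cluster led by Gngt2 and Clec4a3 was at 352 CPM (303 to 406) and that led by Fn1 and F13a1 at 230 CPM (205 to 257). The higher of these had none of the 9 monocyte markers among its 10 leading genes, though 8 were at least 2-fold above the other cells. The neutrophil cluster led by Mmp8 and Retnlg was at 243 CPM (200 to 291), and the other neutrophil clusters at 138 CPM (112 to 169) and 129 CPM (110 to 149). S100a8, a neutrophil transcript, was 194693 CPM in neutrophils and still 8709 CPM in late erythroid and 34414 CPM in NK and innate lymphoid cells, and its source in those cells was not tested. Median UMIs per cell lay between 775 in plasmacytoid dendritic and 2559 in late erythroid cells. Late erythroid and granulocyte-monocyte progenitor cells (1957), the lowest by sum, were also the deepest. The highest by sum, NK and innate lymphoid (856), conventional dendritic (876) and B lineage cells (1046), were shallower. Among cells with at least 1000 UMIs, NK and innate lymphoid cells were at 358 CPM and late erythroid cells at 109 CPM. The part of depth in this order was not tested. Among the genes most alike the summed level over the 10 classes, out of 2478 genes of at least 50 CPM, were Epsti1 (Pearson r 0.93), Ptprc (0.91), Pdcd6ip (0.91), Ube2b (0.90), Cntrl (0.90), Tle4 (0.89) and Ppp2r5c (0.89). These are descriptions over 10 classes of 1 library, of which the smaller ones rest on few UMIs.

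The wider pathway was described from 5 lists, as Car1gfp over Naivebm, against 22.2% of all measured genes called 2-fold higher and 32.7% called 2-fold lower. With TMM scaling those shares were 30.8% and 26.4%. The lists were written with earlier results of these data known, and no test was made on them. Of 11 measured other AP-1 and ATF subunits 1 was higher and 7 were lower, with a median log2 ratio of -1.28, and 3 were lower with TMM scaling. Jdp2, an AP-1 repressor, had 0 UMIs in the Car1gfp library and 22.8 CPM in the Naivebm library, at least 325-fold lower against a floor of 3 UMIs in the library. Batf3, a factor of dendritic cells, was at -7.12, from 2 UMIs in the Car1gfp library, the Fos relative Fosl2 at -6.13 and Mafg at -1.39. Of 13 measured other immediate early transcription factors 1 was higher and 10 were lower, with a median of -2.38, and 8 were lower with TMM. Nr4a1, an orphan nuclear receptor, had 0 UMIs in the Car1gfp library and was at least 115-fold lower, Cebpb was at -9.80, Klf4 at -8.49 and Klf2 at -7.05. In the first list the higher gene was Atf4, at 1.16, and in the second Myc, at 1.05, both named after their values were seen.

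Of 15 measured feedback phosphatases and decay factors 1 was higher and 8 were lower, with a median of -1.55, and 2 were higher with TMM. Dusp5, a phosphatase of ERK, was at -5.51, Nfkbiz at -4.33, Gadd45b at -4.29 and Tnfaip3, an inhibitor of NF-kappa-B signalling, at -2.95. Of 20 measured upstream kinases and SRF or CREB factors 2 were higher and 10 were lower, with a median of -1.26. Mkl1, a coactivator of SRF, was at -3.92, the SRF partner Elk3 at -3.18, Mapk3, which is ERK1, at -2.88 and the kinase Braf at -2.35. The higher genes of these lists were Ppp1r15a at 2.03 among the feedback genes and Map2k2 at 1.47 and Mapk9 at 1.06 among the upstream ones, also named after their values were seen. The heat shock and dissociation list went the other way, with 6 of 10 measured genes higher and 0 lower, a median of 1.38, and 8 higher with TMM. Its members summed to 5429 CPM in the Car1gfp library and 2035 CPM in the Naivebm library. Hspe1, a mitochondrial chaperonin, was at 2.01 and Hsp90aa1 at 1.68. The inducible chaperone genes Hspa1a and Hspa1b were at 4.25 and 3.45, but they are near-identical copies whose reads may be shared, so that their single values are uncertain.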

How the data were processed

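Single-cell RNA libraries of sorted mouse bone marrow cells were made with 10x Genomics v2 chemistry, per the labels' protocols, and the submitters' processing notes name Cell Ranger 2.1, Seurat 2 and the build mm10. The deposited values are whole-number UMI counts per gene and barcode, not normalised. Groups were taken from the labels, 1 library each.

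Barcodes in which mitochondrial UMIs reached 10% were dropped (122 in Car1gfp, 19 in Naivebm), and none had under 500 UMIs. Scrublet in scanpy 1.11.5 called 171 doublets in Naivebm (2.66%), which were removed, and 9 in Car1gfp (0.375%). That share is under 0.5%, so the caller was taken not to have worked there and none was removed. Counts were summed over kept cells and divided by their total (CPM). Ratios carry exact binomial, CPM exact Poisson and shares exact Clopper-Pearson intervals, all at 95%. A count of 0 was set at 3 UMIs, which is 0.0701 CPM in Car1gfp and 0.361 CPM in Naivebm. Measured genes had at least 20 UMIs over both sides. Cells were thinned without replacement to 4000, 1000 or 500 UMIs with fixed seeds.

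Each library was clustered alone (2000 variable genes, 30 components, 15 neighbours, Leiden resolution 1) without the 10 genes and the pathway lists. A cluster took the class whose markers had the highest mean log2 ratio over the other cells, given at least 3 markers at 2-fold. It stayed unnamed if another list had more markers among its 10 leading genes. It also stayed unnamed if it had no marker of its class there and was far shallower than its library. This rule was set after the data were seen. Of the listed genes, Cebpd was not found in the table. Beyond the 10 genes, the 4 measured genes with the largest absolute ratio of each pathway list and the 8 most alike genes are named, apart from 1 gene that is not reported here; clusters are described by their leading genes. The members and lists were chosen with earlier results of these data known. Promoter sequences are RefSeq's and positions GENCODE M21's. TMM and DESeq2 scaling used edgeR 4.0.16 and DESeq2 1.42.0 as size factors only, in R 4.3.3. The alternatives were scaling, cell weighting, depth and mitochondrial limits, doublets, other thinning depths and seeds, terciles, other clusterings and left-out clusters. Interval and thinning code was tested on simulated data.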

Additional observations from a re-analysis of the deposited data

How the results depend on the processing

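No paired analysis was possible because each group is 1 library and the labels carry no replicate numbers; for the same reason no replicate could be left out. Jund, at a log2 ratio of -0.02, was at 0.37 with TMM or DESeq2 factors, 0.11 with every cell weighted equally and 0.29 in cells with at least 1000 UMIs, and no other value changed sign. The summed log2 ratio of Car1gfp over Naivebm was 1.08, and 1.47 with TMM factors, 1.46 with DESeq2 size factors, 1.42 with every cell weighted equally and 1.32 in cells with at least 1000 UMIs, where 1 gene in place of 2 was counted as at least 2-fold lower because Atf3, at -2.25, had under 20 UMIs. The median co-detection over all 45 pairs was 1.44, and 1.62 at 2000 UMIs. The deepest over the shallowest depth group was -2.04 in terciles and -2.37 with a 5% mitochondrial limit. The highest over the lowest globin group was -0.84 within the middle tercile of depth, -0.16 in terciles and -0.82 with every cell weighted equally. Cells with over cells without Gata2 were at 0.46 within the middle tercile of depth. Without the 569-cell cluster, an alternative added after seeing the data, the library ratio was 0.73, depth -1.29, globin -0.43, co-detection over 45 pairs 1.21 and Gata2 0.60. The NK and innate lymphoid class was the highest under each alternative tried, at a log2 of the highest over the lowest class from 1.72 to 2.23, and late erythroid cells the lowest except at resolution 2, where erythroid progenitor cells were. The cause of these shifts was not tested. Depth limits the Naivebm values: Fosb had 2 UMIs, Egr1 13, Atf3 18 and Dusp1 41.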

Other observations

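The barcodes left out for mitochondrial content also held immediate early transcripts. The 122 of the Car1gfp library summed to 389 CPM (346 to 435), with Jun at 130 CPM, Ier2 at 100.1 CPM and Fosb at 26.0 CPM, against 398.5 CPM in the kept cells. The 19 of the Naivebm library held 5 UMIs of the 10 genes, or 327 CPM (106 to 763). Thinned to 500 UMIs, 22.2% (20.5 to 23.9) of Car1gfp cells and 10.4% (9.67 to 11.2) of Naivebm cells had a UMI of any of the 10 genes.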
